A study of Mus musculus with 6 samples.

Results

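The genes described are 8 that encode enzymes of heme synthesis (Alas1, Alas2, Alad, Uros, Urod, Cpox, Ppox and Fech) and Hmox1, which encodes the inducible heme oxygenase. They were taken by symbol, and all 9 were found among the 47606 genes of each deposited table. RNA was measured by sequencing in 32D, a mouse line of myeloid progenitors that grows in interleukin 3, here at 1 ng/mL. All 6 libraries came from cells transduced with lentivirus for dCas9-KRAB, in which a repressor domain is joined to a Cas9 without cutting activity, and selected with puromycin for a week. The groups were dCas9-KRAB with guide sg2 (2 libraries), dCas9-KRAB with guide sg5 (2 libraries) and dCas9-KRAB with an empty vector, EV (2 libraries), each numbered 1 and 2. By its title, the study concerned an enhancer of CEBPE, whose product is needed late in granulocyte development. The second sg5 library is sg5 by its title, while its source name and genotype name sg2, and it was counted as sg5. The labels do not say whether libraries 1 and 2 of a group were separate cultures, so the p-values speak only of the spread among these samples, and that spread may be technical.

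Heme is an iron-bearing ring that serves as cofactor of cytochromes, peroxidases, catalase and the phagocyte oxidase. Its synthesis begins in mitochondria, where ALAS joins glycine and succinyl-CoA into aminolevulinate, passes through the cytosol and ends in mitochondria with the insertion of iron by ferrochelatase. ALAS1, made in most cells, is the usual rate-limiting enzyme and is repressed by heme, whereas ALAS2 serves red cell precursors. HMOX1 opens the ring to biliverdin, carbon monoxide and iron. The question put to the data was whether Alas1 alone was lower in guide cells or the pathway as a whole.

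The deposited values are FPKM, which allow for transcript length and library size, so levels of different genes can be set side by side. The low values of long single-transcript genes implied between 31700000 and 45700000 fragments per library. Cebpe, the gene named in the title, measured 14.4 and 18.7 FPKM with sg2, 19.4 and 22.7 FPKM with sg5, and 42.0 and 100.4 FPKM with EV. Of 10 markers listed for a granulocyte-monocyte progenitor, 8 averaged at least 1 FPKM, and Cd34 and Kit did not. Spi1 and Prtn3, genes of a myeloid transcription factor and a granule protease, measured at least 103 and 234 FPKM in every library, whereas Kit, a progenitor receptor gene, was listed at 0 in all 6. Of 15 erythroid markers in the files, 7 averaged at least 1 FPKM, among them the globin gene Hba-a1. Another 4 were listed at 0 throughout (Slc4a1, Hbb-bh1, Hbb-bs and Hbb-bt). Gata1 was the only 1 of the 7 whose guide libraries all lay above both EV libraries, against 2.54% of all genes tested. The summed erythroid level was 85.4 to 129 FPKM in guide libraries and 114 to 115 FPKM in EV libraries. The summed level of 10 neutrophil markers was 140.4 to 198 FPKM in guide libraries and 459 to 690.0 FPKM in EV libraries. In bulk RNA, fewer cells of a type and less RNA per cell cannot be told apart.

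Alas1 (ENSMUSG00000032786, GRCm38 chromosome 9, 106233455 to 106248654, minus strand) was the only member of the 8 tested whose guide libraries all lay on one side of EV. It measured 46.9 and 54.7 FPKM with sg2, 50.9 and 54.8 FPKM with sg5, and 117 and 159.9 FPKM with EV. All 4 guide libraries lay below both EV libraries, and the guide libraries differed less among themselves than the EV pair did. The mean was 51.8 ± 3.78 FPKM in guide libraries (SD, n = 4) and 138 ± 30.5 FPKM in EV libraries (SD, n = 2), so that guides held 37.5% of the EV level. Within number 1 the level was 40.1% of EV with sg2 and 43.6% with sg5, and within number 2 it was 34.2% and 34.3%. By level among the 9 genes, Alas1 took rank 4 or 5 in the guide libraries and rank 2, behind Alad, in both EV libraries.

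The log2 difference of Alas1, guides minus EV, was -1.38 (SE 0.17, 95% limits -1.79 to -0.98) on the log2(FPKM + 1) scale, which is used for every difference here but those of ratios. The limma fit over 12929 genes that averaged 1 FPKM or more gave Alas1 an adjusted p of 0.256. No member and 0 genes in all (0% of those tested) passed 0.05 in that fit, and 169 genes (1.31%) had an unadjusted p under 0.05. With the replicate number as a term in the fit, Alas1 fell (SE 0.09, limma adjusted p = 0.0310). That fit called 5 genes (0.0387%), 4 of them lower (0.0309%), and Alas1 was the only member called. The call was lost without any 1 of the 6 libraries, with a limma adjusted p between 0.0501 and 0.276, while the difference kept its sign and stayed between -1.53 and -1.24. An exact two-sided permutation test of Alas1 returned 0.0667, the lowest value possible with 4 libraries against 2. The guide libraries lay wholly below EV for 2.56% of all genes tested and wholly above for 2.54%; among the members this held for Alas1, in the lower direction, and for no other.

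Each guide was also set against EV alone, with the same EV libraries serving both. The log2 difference from EV was -1.41 (SE 0.22) with sg2 and -1.35 (SE 0.22) with sg5. Neither passed over all genes (limma adjusted p = 1.00 for both, and 0.126 for sg2 and 0.136 for sg5 with the replicate number in the fit). No member passed in either comparison, where 0.00773% of genes did for sg2 and 0% for sg5, or 0.0232% and 0.0155% with the replicate number in the fit. The difference between the guides themselves, sg5 minus sg2, was 0.06 with 95% limits of -0.51 to 0.63, and 0 genes passed (0%). It was -0.030 with the second sg5 library taken as sg2.

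Neutrophil markers, like Alas1, were lower in guide than in EV libraries. Ngp, Ltf, S100a8, S100a9 and Lcn2 each had its 4 guide values below its 2 EV values, and these were 5 of the 6 markers of that list that averaged 1 FPKM or more, against 2.56% of all genes tested. Between the EV libraries the order differed: Alas1, Ngp, Ltf and Lcn2 were higher in the second, and S100a8 and S100a9 in the first. Cebpe, too, lay lower in all 4 guide libraries, with a log2 difference of -1.75 that did not pass (SE 0.36, limma adjusted p = 1.00, and 0.223 with the replicate number in the fit). Among protein-coding genes alone, with the replicate number in the fit, Cebpe passed (limma adjusted p = 0.0173). Its difference was -1.14 without the second EV library and -2.37 without the first. The part of either in the level of Alas1 was not tested. The 5 genes most like Alas1 over the 6 libraries, by Pearson's r on the log2 scale, were Bin1 (r = 0.987), a membrane-bending protein gene at 7.31 to 7.74 FPKM in guide libraries and 8.54 and 9.35 FPKM in EV libraries, and the annotated short RNAs Gm23772, Gm25551, Gm22101 and n-R5s193 (r of 0.981 to 0.992), listed at 0 in every guide library. Those short RNAs passed the filter of 1 FPKM through their EV values alone. Their rank by r follows from that filter and the split between the groups, and is no evidence of a shared control with Alas1. An exon of Alas1 overlaps 4930500F10Rik on the opposite strand, which measured 0.073 to 0.706 FPKM in guide libraries and 0.149 and 1.02 FPKM in EV libraries.

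The sequence around an Alas1 start is shown because Alas1 is the member that differed, and that of Alas2 because it is the erythroid counterpart. Both windows run from 250 bases before to 50 bases after a RefSeq start (GRCm38.p6), 5′ to 3′ on the gene's strand. Alas1 has another RefSeq start, whose window overlaps the printed one. Capitals mark the palindrome of NRF1, an activator of respiratory genes, in Alas1 (chr9:106247681-106247980, minus strand) and the letters AGATAA on the opposite strand, a motif of GATA factors, in Alas2 (chrX:150547167-150547466, plus strand).
Alas1: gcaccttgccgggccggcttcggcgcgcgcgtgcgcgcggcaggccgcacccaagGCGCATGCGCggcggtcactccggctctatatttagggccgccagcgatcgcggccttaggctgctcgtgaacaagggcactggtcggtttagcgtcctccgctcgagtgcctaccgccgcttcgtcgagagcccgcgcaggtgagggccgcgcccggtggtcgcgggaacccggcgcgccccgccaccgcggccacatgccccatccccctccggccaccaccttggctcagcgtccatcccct
Alas2: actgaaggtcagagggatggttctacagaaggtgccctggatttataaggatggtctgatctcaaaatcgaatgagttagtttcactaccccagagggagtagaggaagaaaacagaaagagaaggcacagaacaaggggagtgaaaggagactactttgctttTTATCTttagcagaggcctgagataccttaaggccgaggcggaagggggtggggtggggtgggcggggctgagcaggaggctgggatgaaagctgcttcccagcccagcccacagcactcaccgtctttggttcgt
The NRF1 palindrome stands in 0.971% and the GATA letters in 11.2% of the 32851 mouse promoter windows of this length, counting both strands. The C/EBP palindrome (0.183% of windows) and its looser form TTGCNNAA (10.8%), which includes the palindrome, were in none of the 10 member windows searched. Those windows belong to 7 members, and no window of Fech or Hmox1 was searched. The other 3 motifs searched were TGACG (20.8%), TATAAA (13.6%) and TGANNNNGC (41.3%), of which the printed Alas1 window held none, the window of the other Alas1 start held TGACG and the printed Alas2 window held TATAAA. The NRF1 palindrome was in both Alas1 windows, 195 bases before the start in the printed one and at base 30 after the start in the other. The Nrf1 transcript measured 21.1 and 17.8 FPKM with sg2, 18.1 and 12.7 FPKM with sg5, and 21.6 and 13.7 FPKM with EV.

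Alas2 (ENSMUSG00000025270, chromosome X, 150547375 to 150570638, plus strand) had the lowest level of the 9 genes in every library. It measured 0.37 and 1.35 FPKM with sg2, 0.43 and 0.25 FPKM with sg5, and 0.99 and 0.71 FPKM with EV. The groups overlapped, since the second sg2 library was the highest of all and the other 3 guide libraries were the lowest. Taking the longest transcript, these values imply 27, 95, 25 and 18 fragments in the guide libraries and 59 in each EV library. With a mean under 1 FPKM Alas2 did not enter the test, and without that filter its log2 difference was -0.25 (95% limits -0.94 to 0.44, limma adjusted p = 1.00). An exon of Alas2 overlaps Apex2 on the opposite strand, a repair gene at 6.64 to 15.1 FPKM, and whether the libraries keep strand is not given, so some of these fragments may belong to Apex2.

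**Figure D1:**
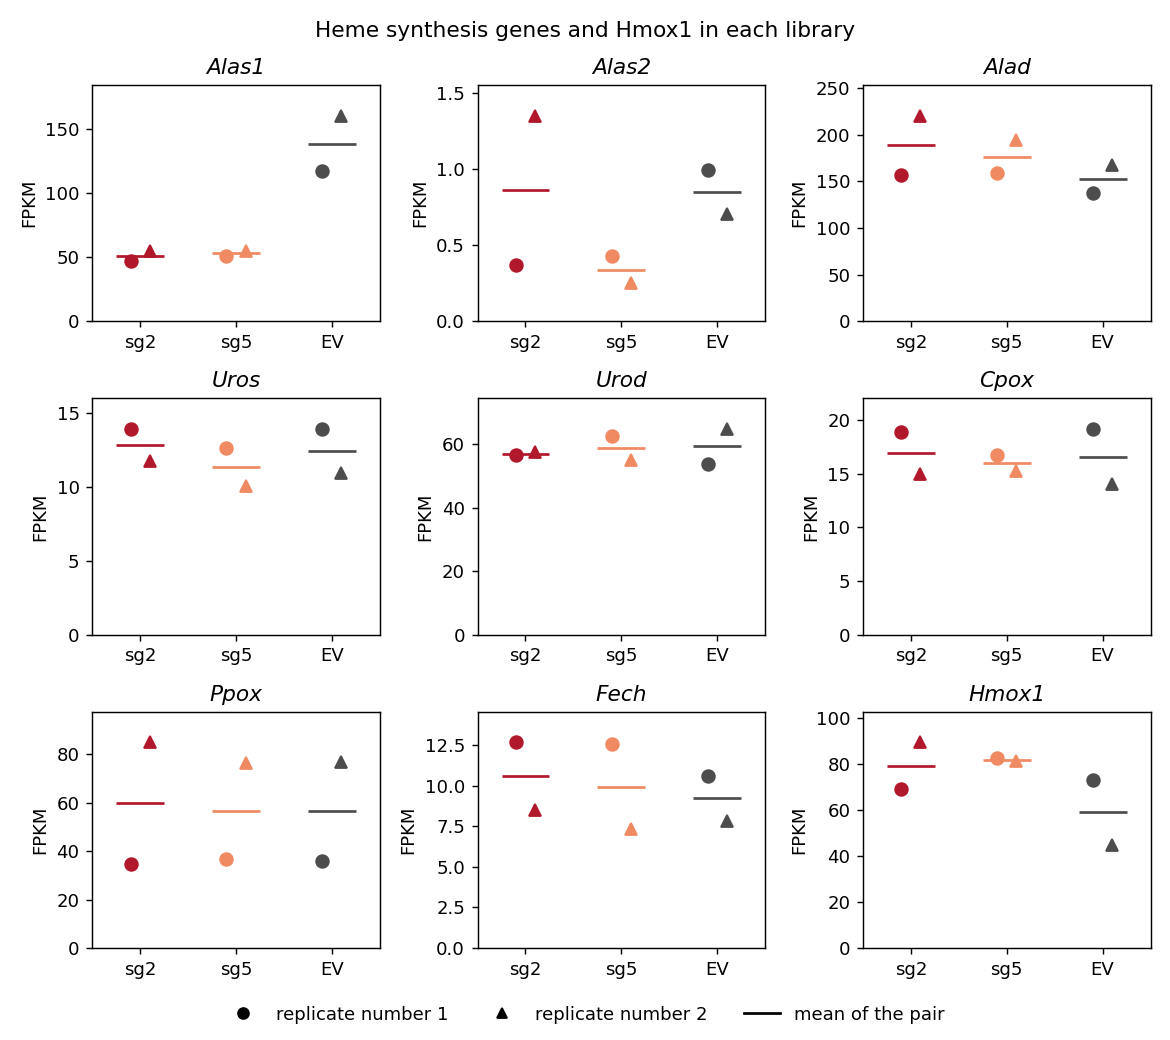
FPKM of the 9 genes in each library, by group (sg2, sg5, EV), with circles for replicate number 1, triangles for number 2 and a line at the mean of each pair; every axis starts at 0. Alas1 sits at 46.9 to 54.8 FPKM in the guide libraries and at 117 and 159.9 FPKM in EV, while Ppox splits by replicate number in every group.

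None of the 6 enzymes after ALAS passed the test between guide and EV cells. Alad, the gene of the enzyme that joins aminolevulinate molecules into porphobilinogen (ENSMUSG00000028393, chromosome 4, 62509169 to 62519918, minus strand), measured 157 and 220.4 FPKM with sg2, 159 and 194 FPKM with sg5, and 138 and 168 FPKM with EV. Each guide library was above the EV library of its number, at 114% and 131% with sg2 and 116% and 116% with sg5, though the groups overlapped across numbers. The log2 difference of Alad was 0.25 (SE 0.19, 95% limits -0.22 to 0.72). It did not pass (limma adjusted p = 1.00, and 0.797 with the replicate number in the fit, where the unadjusted p was 0.0169 against 5.72% of all genes under 0.05). Without the first EV library the value was 0.11, and with the replicate number in that fit 0.30.

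Uros and Urod act next in the cytosol, forming the porphyrin ring and trimming its side chains. They lie on the minus strand, Uros (ENSMUSG00000030979) at 133686243 to 133710072 of chromosome 7 and Urod (ENSMUSG00000028684) at 116989965 to 116994413 of chromosome 4. Uros measured 13.9 and 11.8 FPKM with sg2, 12.6 and 10.1 FPKM with sg5, and 13.9 and 11.0 FPKM with EV. Urod measured 56.6 and 57.4 FPKM with sg2, 62.5 and 55.0 FPKM with sg5, and 53.9 and 64.7 FPKM with EV. The groups overlapped for both genes. The log2 differences were -0.04 for Uros (95% limits -0.45 to 0.38) and -0.03 for Urod (95% limits -0.35 to 0.29), and neither passed (limma adjusted p = 1.00 for both). With the replicate number in the fit the 95% limits were -0.26 to 0.19 for Uros and -0.28 to 0.22 for Urod.

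Cpox, Ppox and Fech encode the closing mitochondrial steps, which oxidise the ring and insert the iron. Cpox (ENSMUSG00000022742) lies on the plus strand of chromosome 16 at 58670292 to 58717636, Ppox (ENSMUSG00000062729) on the minus strand of chromosome 1 at 171275990 to 171281186, and Fech (ENSMUSG00000024588) on the minus strand of chromosome 18 at 64452914 to 64490251. Cpox measured 18.8 and 14.9 FPKM with sg2, 16.7 and 15.2 FPKM with sg5, and 19.2 and 14.0 FPKM with EV. Ppox measured 34.6 and 84.9 FPKM with sg2, 36.7 and 76.4 FPKM with sg5, and 36.1 and 76.9 FPKM with EV. Fech measured 12.7 and 8.50 FPKM with sg2, 12.5 and 7.33 FPKM with sg5, and 10.6 and 7.85 FPKM with EV. In all 3 genes the guide and EV libraries overlapped, and the level followed the replicate number. The log2 differences, guides minus EV, were -0.00 for Cpox, 0.02 for Ppox and 0.12 for Fech, and none passed (limma adjusted p = 1.00 for each). With the replicate number in the fit the 95% limits were -0.22 to 0.21 for Cpox, -0.16 to 0.21 for Ppox and -0.12 to 0.36 for Fech, against -1.60 to -1.17 for Alas1.

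**Figure D2:**
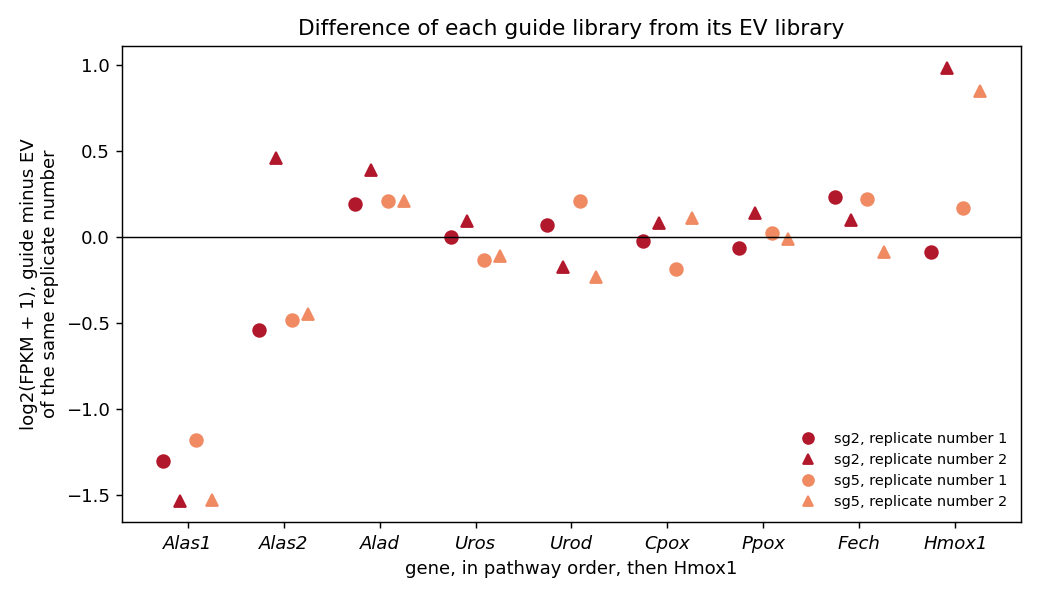
Difference in log2(FPKM + 1) of each guide library from the EV library of its replicate number, for the 9 genes in pathway order; circles are number 1, triangles number 2, and sg2 and sg5 of a number share 1 EV library. The 4 Alas1 points lie between -1.53 and -1.18, and those of the 6 later enzymes between -0.23 and 0.39.

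The summed level of the 6 later enzymes was 294 and 398 FPKM with sg2, 300.3 and 358 FPKM with sg5, and 271 and 342 FPKM with EV. The sums were higher in each guide library than in the EV library of its number, with Alad as the largest term. Without Alad the other 5 summed to 137 and 177 FPKM with sg2, 141 and 164 FPKM with sg5, and 134 and 175 FPKM with EV, and the second sg5 library was then below EV of its number. Without Alas1 the 7 other members tested had a median log2 difference of 0.02 and a range of -0.04 to 0.48, against a median of -0.00 over all genes tested.

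Hmox1, the gene of the heme-degrading enzyme induced by heme and oxidants (ENSMUSG00000005413, chromosome 8, 75093621 to 75100589, plus strand), measured 68.9 and 89.3 FPKM with sg2, 82.3 and 81.1 FPKM with sg5, and 73.2 and 44.6 FPKM with EV. The second EV library was the lowest, and the first EV library lay within the range of the guide libraries. The log2 difference was 0.48 (SE 0.22, 95% limits -0.07 to 1.03) and did not pass (limma adjusted p = 1.00, and 0.813 with the replicate number in the fit). It was 0.45 with sg2, 0.51 with sg5 and 0.06 for sg5 minus sg2. The value rests on which EV library is used. Without the second the difference was 0.13 (0.041 with the replicate number in the fit), and without the first it was 0.83 (0.92). In number 1 the guides stood at 94.1% (sg2) and 113% (sg5) of EV, and in number 2 at 200.3% and 182%.

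The ratio of Alas1 to each other member gave a test of whether Alas1 differed from the pathway within the same libraries. Alas1 over Alad was 0.298 and 0.248 with sg2, 0.320 and 0.282 with sg5, and 0.848 and 0.953 with EV. Alas1 over Urod was 0.828 and 0.953 with sg2, 0.815 and 0.997 with sg5, and 2.17 and 2.47 with EV. For all 7 ratios tested, the guide libraries lay below both EV libraries. The 7 share the same Alas1 values, which already lay apart on their own, so they are not 7 separate results. Alas1 over Hmox1 was 1.60 in the first EV library and 3.59 in the second. The log2 ratio, taken on FPKM with no pseudocount, differed between guides and EV by -1.36 for Uros, the smallest, to -1.89 for Hmox1, the largest. The exact two-sided permutation p was 0.0667 for each ratio but that to Ppox (0.133), and the values adjusted over the 7 ratios were 0.0778 and 0.133, and a design of 4 libraries against 2 cannot reach 0.05.

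The members were also compared between the replicate numbers. In a limma fit with group and number as terms, 47.1% of all genes tested differed between number 2 and number 1, with 20.2% higher and 26.9% lower in number 2. Among the 8 members tested 5 passed, a share near that background. Ppox rose in number 2 (log2 difference 1.13, SE 0.07, limma adjusted p = 0.00197), with 76.4 to 84.9 FPKM in number 2 against 34.6 to 36.7 FPKM in number 1. Alad rose as well (log2 difference 0.35, limma adjusted p = 0.0162). Fech fell by 0.54 on the log2 scale (limma adjusted p = 0.0108), Uros by 0.28 (0.0282) and Cpox by 0.29 (0.0481). The value for Alas1 was 0.26 (limma adjusted p = 0.0676), that for Urod 0.03 and that for Hmox1 -0.12 (0.17 without either EV library), and these 3 did not pass. After median-of-ratios scaling of the libraries 4 members passed, 3 higher (Alas1, Alad and Ppox) and 1 lower (Fech). Leaving out 1 library reduced the 5 calls to between 1 and 3. The exons of Ppox overlap those of B4galt3, a glycosyltransferase gene on the opposite strand. B4galt3 measured 18.8 and 46.0 FPKM with sg2, 16.1 and 42.3 FPKM with sg5, and 18.7 and 43.0 FPKM with EV, and without strand the reads of overlapping exons cannot be told apart.

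**Figure D3:**
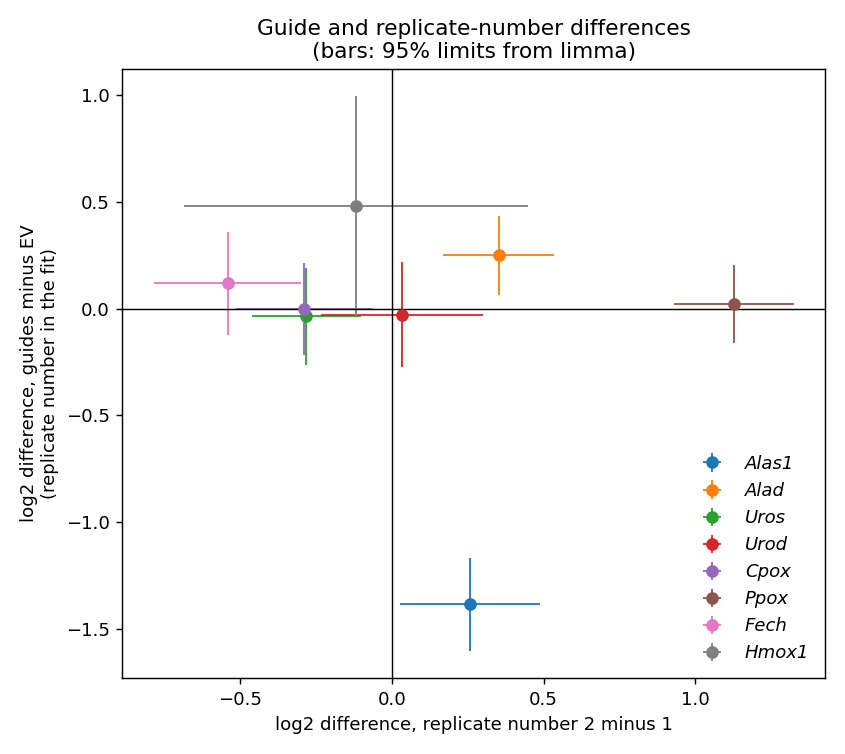
Log2 difference of guides minus EV (vertical, from the fit with the replicate number) against log2 difference of replicate number 2 minus 1 (horizontal) for the 8 members tested; bars are 95% limits from limma. Alas1 stands at -1.38 on the vertical axis with the other 7 between -0.04 and 0.48, and Ppox at 1.13 on the horizontal axis.

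No carrier, cofactor gene or breakdown gene around the pathway passed the test between guides and EV. Of 26 listed genes 24 were in the files and 22 were tested, of which 10 had a log2 difference below 0 and 12 above; the median was 0.02, and 0 were called with or without the replicate number. Without 1 library the median lay between -0.13 and 0.14. The 3 of smallest p were Suclg1, a subunit gene of the enzyme that uses succinyl-CoA (-0.18, SE 0.29), Slc25a38, the gene of the mitochondrial glycine carrier (0.10, SE 0.18), and Fam210b, a gene of mitochondrial heme synthesis in red cell precursors (0.08, SE 0.18). Among 9 tested regulators of Alas1 or Hmox1 the median was -0.01, between -0.05 and 0.12 without 1 library, with 0 called. Maff, which encodes a small partner of BACH1 and NRF2, measured 4.09 and 11.2 FPKM with sg2, 6.57 and 11.7 FPKM with sg5, and 3.72 and 7.74 FPKM with EV. Keap1, the gene of the NRF2 inhibitor, had a log2 difference of -0.06 (SE 0.14), and Mafk, another small MAF gene, 0.10 (SE 0.32). Ppargc1a and Foxo1, coactivator and transcription factor genes known for induction of Alas1 in liver, were at most 0.05 FPKM in every library.

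Targets of NRF2 and BACH1, the factors that also act on Hmox1, had mostly negative values. Among 12 tested genes the log2 difference was below 0 for 11, and the median was -0.14 against -0.00 over all genes, and 0 were called. Gsr, the glutathione reductase gene, measured 71.8 and 69.6 FPKM with sg2, 60.5 and 68.4 FPKM with sg5, and 77.0 and 91.1 FPKM with EV. All 4 guide libraries lay below both EV libraries, with a log2 difference of -0.31 (SE 0.14, limma adjusted p = 1.00). Gsr, named for the smallest p of this list, was the only 1 of the 12 to do so, against 2.56% of all genes tested. G6pdx, of the pentose phosphate pathway, and Txnrd1, a thioredoxin reductase gene, had differences of -0.26 (SE 0.17) and -0.19 (SE 0.19). Without 1 library the differences were -0.43 to -0.19 for Gsr, -0.36 to -0.17 for G6pdx and -0.31 to -0.078 for Txnrd1, with Gsr and Txnrd1 nearest 0 without the second EV library and G6pdx without the first. The median of this list turned to 0.13 without the second EV library and was -0.45 without the first; with the replicate number in those fits it was -0.06 and -0.18.

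The last list held genes of heme proteins and of proteins that act with them, some of which, such as the products of Ncf1, Cyb5r3, Alox5ap and Uqcrh, are not known to bind heme themselves. Of 17 tested, 12 had a log2 difference below 0 and 5 above; the median was -0.09, and 0 were called. The median was 0.23 without the first EV library and -0.34 without the second. Epx, which encodes the peroxidase of eosinophil granules, measured 8.77 and 55.1 FPKM with sg2, 35.1 and 61.6 FPKM with sg5, and 75.5 and 253 FPKM with EV (log2 difference -2.06, SE 0.86). Cyp11a1, a steroid-synthesising cytochrome, measured 295 and 322 FPKM with sg2, 439.7 and 327 FPKM with sg5, and 252 and 239.7 FPKM with EV (log2 difference 0.48, SE 0.19). Nos2, the inducible nitric oxide synthase gene, measured 3.34 and 14.6 FPKM with sg2, 7.16 and 12.2 FPKM with sg5, and 2.87 and 0.26 FPKM with EV (log2 difference 2.07, SE 0.65). In all 3, which were named for the smallest p of this list, the guide and EV libraries did not overlap. Epx lay lower in the guide libraries, as did Ncf1, and Cyp11a1 and Nos2 lay higher. Of all genes tested, 2.56% lay wholly lower and 2.54% wholly higher. None of the 3 passed over all genes (limma adjusted p = 1.00 for each, and 0.647 to 0.813 with the replicate number in the fit). Without the second EV library the differences were -1.20 for Epx and 1.26 for Nos2, or -2.03 and 0.62 with the replicate number in the fit; without the first they were -2.93 and 2.88, or -2.10 and 3.51. At a pseudocount of 5 the difference of Nos2 was 1.08.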

How the data were processed

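The authors deposited 1 table of FPKM values per library. Per the submitters' processing notes, kallisto 0.43.0, DESeq2, GRCm38 and mm10 were used, with no role stated for any; how FPKM was computed, and on which annotation, is not given in the sources used here. Gene types, positions and exon overlaps were read from the GENCODE M21 annotation of GRCm38, in which 47187 gene IDs were found; the deposited position and strand columns were not used. One further gene of the pathway is not reported here.

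FPKM is not a count, so differences were tested on log2(FPKM + 1) in limma 3.58.1 (R 4.3.3) with an intensity trend, over 12929 genes averaging 1 FPKM or more, with Benjamini-Hochberg adjustment at 0.05. Guides were set against EV as 4 against 2 libraries; a fit with 3 groups gave each guide. The procedure was tested on simulated data. The planned fit and the permutation tests took no account of the replicate number, which was a term only in the fits that name it. In those fits the numbers were taken to pair the libraries. The difference between replicates 2 and 1 correlated across genes at 0.583 to 0.611 between groups. Of the 6 libraries, 6 correlated best with one of the same number. This pairing is read from the data, as no label ties a number to a batch. Depth was estimated from low values of 752 single-transcript genes over 4000 nt, with an assumed fragment length of 200 nt; 93.2% to 97.4% of low values were whole within 0.15 fragments. Fragment numbers cover counting error only. Figures were drawn with Python 3.11.15 and matplotlib 3.10.9.

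The members and lists were chosen with earlier results of these data known. Named genes were all members, Cebpe and the 5 most like Alas1. From each list of the pathway the 3 of smallest p in the planned fit were named. Neutrophil and other markers, Nrf1, Fth1, Slc25a37, genes overlapping a member, Ppargc1a and Foxo1 were named outside these rules.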

Additional observations from a re-analysis of the deposited data

Results flagged for a closer look

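Alas2 measured 1.35 FPKM in the second sg2 library, against 0.25 to 0.43 FPKM in the other 3 guide libraries. Its gap to the next library was 0.839 of the range of the 4. That is past Dixon's critical value for 4 samples, which chance passes in about 1 of 20 groups. The rule was applied to each member and to Cebpe, so chance had more than 1 occasion to pass it. The 4 libraries also differ in guide and replicate number, so they are not a single sample. The second sg2 library had the largest share of its summed FPKM in genes under 200 nt, at 21.5%. The share was 9.03% to 15.4% in the other guide libraries and 6.77% and 16.4% in EV. The part of this share in the Alas2 value was not tested.

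Uros was above the EV library of its number in both sg2 libraries (100.2% and 107%) and below it in both sg5 libraries (90.8% and 92.0%). The difference itself, sg5 minus sg2, was -0.17 on the log2 scale (SE 0.21, limma adjusted p = 1.00, and 0.854 with the replicate number in the fit) and did not pass. It turned to 0.087 with the second sg5 library, whose source name gives sg2, taken as sg2.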

How the results depend on the processing

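The direction of Alas1 held under all 22 alternatives, between -1.61 and -1.16. Alas1 passed only with the replicate block, which was an alternative to the planned fit (limma adjusted p = 0.256 as planned). Its difference was -1.38 with the block alone, -1.38 with median-of-ratios scaling as well and -1.38 among protein-coding genes. The limma adjusted p values were 0.0310, 0.0313 and 0.000438, and in each case Alas1 was the 1 member called. Genes called between guides and EV were 0 without the block, 5 with it, 5 with the block and median-of-ratios scaling, 18 with the block among protein-coding genes, 1 among protein-coding genes without it, 1 at a pseudocount of 5 and 6 without the filter. Without 1 library they were 0 to 1, or 0 to 2 with the block. For sg2 the 1 gene called became 3 with the block, 0 with the second sg5 library taken as sg2 and 0 without any 1 library; for sg5, 0 became 2 with the block. Taking the second sg5 library as sg2 turned sg5 minus sg2 to -0.030 for Alas1 and 0.087 for Uros, and leaving out 1 library gave -0.049 to 0.17 for Alas1 and -0.13 to 0.24 for Hmox1. Members that did not pass turned sign without 1 library: Uros (-0.19 to 0.12), Urod (-0.16 to 0.10), Cpox (-0.22 to 0.21), Ppox (-0.51 to 0.56), Fech (-0.077 to 0.31). So did Suclg1 (-0.46 to 0.10), Slc25a38 (-0.068 to 0.26), Fam210b (-0.065 to 0.23), Keap1 (-0.16 to 0.036) and Mafk (-0.24 to 0.45). With the replicate block, values of changed sign were 0.0031 for Uros, 0.14 and 0.0069 for Urod, 0.10 and 0.045 for Cpox, -0.018 and -0.015 for Ppox and 0.069 for Keap1. Between number 2 and number 1, leaving out 1 library gave 3205 to 4365 genes and 1 to 3 members called, and log2 differences of -0.080 to 0.14 for Urod and -0.36 to 0.17 for Hmox1. The cause of these changes was not tested, beyond the fewer samples of the fits without a library.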

Other observations

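The genes around the pathway also followed the replicate number. Of 22 tested carriers, cofactor and breakdown genes 17 differed between number 2 and number 1 (12 lower and 5 higher), with a median log2 difference of -0.33, against 47.1% of all genes and a median of -0.04. Of the 12 NRF2 and BACH1 targets tested 8 differed, 7 of them higher, with a median of 0.41. Fth1, the ferritin heavy chain gene, measured 2351 and 1789 FPKM with sg2 and sg5 and 2059 FPKM with EV in number 2, and 845 and 739 FPKM with sg2 and sg5 and 833 FPKM with EV in number 1. Fth1 was named after its values were seen.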
